A study of Mus musculus with 6 samples.

Results

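The nuclear genes of the mitochondrial respiratory chain and ATP synthase were followed in MIN6 cells, a mouse line that secretes insulin and stands in for the pancreatic beta cell. Genes were taken by name from the protein-coding entries of the count table: the Nduf families a, b, c, s and v, Sdha to Sdhd, the Uqcr and Uqcc genes, Cyc1, the Cox4 to Cox8 families and every Atp5 gene. The rule found 91 of the 55487 genes in the table, of which 36 belong to complex I, 4 to complex II, 12 to complex III, 21 to complex IV and 18 to complex V. It took in assembly factors (Uqcc1, Uqcc2, Uqcc3 and Cox7a2l), tissue-restricted isoforms and 2 names marked as pseudogenes, Ndufb1-ps and Cox5b-ps, which the table lists as protein-coding. Ndufa4 and its relative Ndufa4l2 carry complex I names and were counted with complex IV, where the Ndufa4 protein is found.

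RNA was sequenced from 3 libraries of cells carrying full-length parathyroid hormone-related protein (PTHrP, the product of Pthlh) and from 3 libraries of cells carrying the vector for the red fluorescent protein DsRed. Both groups were confluent MIN6 cultures transfected with Lipofectamine, and RNA was taken at most 3 days later. Transfection was transient, so each library pools cells with and without the plasmid, and the share of transfected cells is not given in the sources used here. The labels do not tell whether the libraries of a group are separate cultures; every p-value therefore reflects only how these samples spread, and that spread may be technical. MIN6 is 1 cell line, and no primary islet was measured here.

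The respiratory chain passes electrons from NADH and succinate to oxygen and uses the energy to pump protons across the inner mitochondrial membrane, and ATP synthase lets the protons back to make ATP. Complex I oxidises NADH, complex II oxidises succinate, complex III passes electrons from ubiquinol to cytochrome c, complex IV hands them to oxygen, and complex V is the ATP synthase. Each complex other than complex II also holds subunits made inside the mitochondrion from mitochondrial DNA. In beta cells, ATP from this chain closes the potassium channel that couples glucose metabolism to insulin release.

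Many nuclear genes of the chain carry binding sites for nuclear respiratory factor 1 (the product of Nrf1) and for the ETS-type factor GABP close to their start sites. RefSeq start sites on GRCm38.p6 were at hand for 71 of the 90 member symbols, which gave 76 windows of 250 bases upstream. The palindrome CGCATGCG, the core of the site for nuclear respiratory factor 1, was found in 7 of the 76 windows (9.21%) and in 509 of all 32851 windows (1.55%). The ETS core CCGGAAG, searched on both strands, was found in 12 of the 76 (15.8%) and in 2269 of all windows (6.91%), and the YY1 motif ATGGCGGC, also on both strands, in 2 (2.63%) and 339 (1.03%). A match shows only that these letters are present. The palindrome lay upstream of Ndufa8, Ndufa11, Cox6a1, Atp5g2, Atp5j, Atp5k and Atp5l, and 4 of these windows are given below because they join one subunit of complex I, one of complex IV and a pair of complex V by a shared stretch of sequence. Each is written 5′ to 3′ along its gene, and capitals mark the palindrome and, in Cox6a1, also the ETS core on the opposite strand.
Ndufa11, chr17:56717512-56717761, plus strand: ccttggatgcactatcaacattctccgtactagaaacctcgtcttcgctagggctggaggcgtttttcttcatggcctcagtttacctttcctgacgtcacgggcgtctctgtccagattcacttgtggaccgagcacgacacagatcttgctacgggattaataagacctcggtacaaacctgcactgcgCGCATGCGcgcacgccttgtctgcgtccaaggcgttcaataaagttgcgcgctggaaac
Cox6a1, chr5:115348959-115349208, minus strand: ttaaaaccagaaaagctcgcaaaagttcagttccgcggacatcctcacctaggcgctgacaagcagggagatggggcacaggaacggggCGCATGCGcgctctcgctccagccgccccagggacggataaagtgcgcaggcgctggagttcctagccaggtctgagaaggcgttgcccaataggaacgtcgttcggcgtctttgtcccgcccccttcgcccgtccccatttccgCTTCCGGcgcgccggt
Atp5g2, chr15:102671048-102671297, minus strand: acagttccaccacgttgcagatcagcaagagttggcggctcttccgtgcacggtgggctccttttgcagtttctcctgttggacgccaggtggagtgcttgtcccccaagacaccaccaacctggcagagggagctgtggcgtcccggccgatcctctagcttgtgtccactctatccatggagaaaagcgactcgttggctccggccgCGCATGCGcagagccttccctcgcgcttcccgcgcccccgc
Atp5k, chr5:108434400-108434649, minus strand: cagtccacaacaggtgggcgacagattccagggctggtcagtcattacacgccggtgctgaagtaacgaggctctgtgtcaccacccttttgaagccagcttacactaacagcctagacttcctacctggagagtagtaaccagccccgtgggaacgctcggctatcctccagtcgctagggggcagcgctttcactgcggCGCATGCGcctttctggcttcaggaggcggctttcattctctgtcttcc
The last base of each window lies next to the RefSeq start, and GENCODE M21 sets the outermost start of Atp5g2, Atp5k and Cox6a1 further upstream. Ndufa11 is a membrane-arm subunit of complex I, Cox6a1 the widely expressed form of a complex IV subunit, Atp5g2 one of 3 genes for the proton-carrying c subunit, and Atp5k the e subunit of ATP synthase.

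The libraries held 84427033 to 94613684 counts, and the respiratory chain genes took 1.09, 1.26 and 1.16% of them in PTHrP and 1.08, 1.10 and 1.18% in DsRed. Pthlh counts were 697, 553 and 797 with PTHrP, against 0, 4 and 8 with DsRed (log2 fold change 7.36, SE 0.40, adjusted p = 4.1e-05, edgeR quasi-likelihood test), so its level followed the labels. Markers of beta cells summed to 47120 to 53560 CPM in PTHrP and 48490 to 60530 CPM in DsRed, where CPM is a gene's count set against the scaled total of its library, per 1e6 counts. Markers of acinar, duct, fibroblast, immune and endothelial cells each summed to less than 3 CPM in every library, and the acinar factor Ptf1a was at 0 in all 6. The alpha cell markers summed to 324 to 412 CPM in PTHrP and 357 to 394 CPM in DsRed, mostly from Gcg and Ttr. In bulk libraries, fewer cells of a type and less RNA per cell cannot be told apart.

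PTHrP replicate 2 and DsRed replicate 3 stood apart for these genes. Over all genes, too, PTHrP replicate 2 differed from each other library by a chi-square of 55.5 to 68.6 per gene, against 9.08 to 36.9 between the other libraries. Outside the set, Ins1 had 5434, 6674 and 5794 CPM in PTHrP and 5688, 5744 and 7165 CPM in DsRed, with the same libraries highest. Mafa, a beta cell transcription factor, had 1407, 804.1 and 1319 CPM in PTHrP and 1389, 1421 and 1450.0 CPM in DsRed, with PTHrP replicate 2 lowest. CPM here are scaled by TMM factors, which correct for differences in library makeup, and 85 of the 91 genes had enough counts to be tested. PTHrP replicate 2 was the highest PTHrP library for 68 of the 85 genes (80.0%), against 39.6% of all 21141 genes tested, and PTHrP replicate 1 was the lowest for 69 (81.2%, against 35.1%). DsRed replicate 3 was the highest DsRed library for 66 (77.6%, against 36.9%). Both patterns held for 59 genes (69.4%, against 17.5%). All 17 tested genes of complex V peaked in PTHrP replicate 2 within their group, while the median deviation of the 4 genes of complex II stayed between -0.03 and 0.02 in each library.

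**Figure D1:**
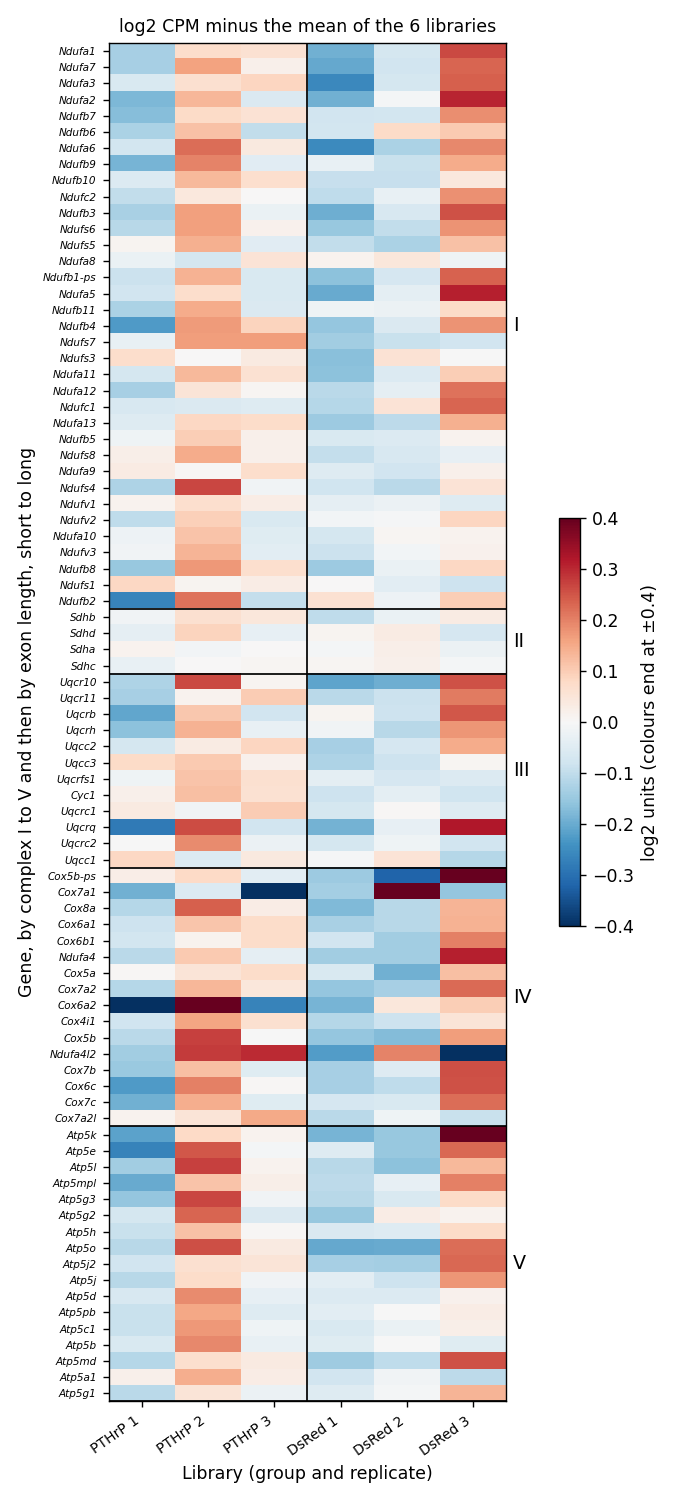
Level of 84 of the 85 tested genes (rows, by complex and then by exon length) in each library (columns), as log2 CPM minus the mean of the 6 libraries; red is above and blue below that mean. Most rows turn red in PTHrP replicate 2 and in DsRed replicate 3, and the rows of complex II stay pale.

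Transcript length ran along with this pattern. The median log2 deviation from the group mean was -0.09, 0.11 and -0.01 in PTHrP replicates 1 to 3 and -0.08, -0.04 and 0.14 in DsRed replicates 1 to 3. Among the 29 genes with the shortest exon length (371 to 732 bases), the median deviation was 0.15 in PTHrP replicate 2 and 0.19 in DsRed replicate 3. Among the 29 longest (1249 to 4912 bases) it was 0.08 in PTHrP replicate 2 and 0.04 in DsRed replicate 3. Over the 85 genes, which share these libraries, Spearman's rho between exon length and deviation was 0.37, -0.25 and -0.12 in PTHrP replicates 1 to 3 and 0.54, 0.51 and -0.58 in DsRed replicates 1 to 3. The deviations of a gene cancel out within its group, so a trend in 1 library brings an opposite trend among the others. The signs therefore cannot show which libraries carry a length trend. Over 21110 genes with a length, rho came to 0.18, -0.17 and 0.04 for the PTHrP libraries and to 0.11, 0.05 and -0.15 for the DsRed libraries. The part of length in the library pattern was not tested beyond the length correction given with the results.

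**Figure D2:**
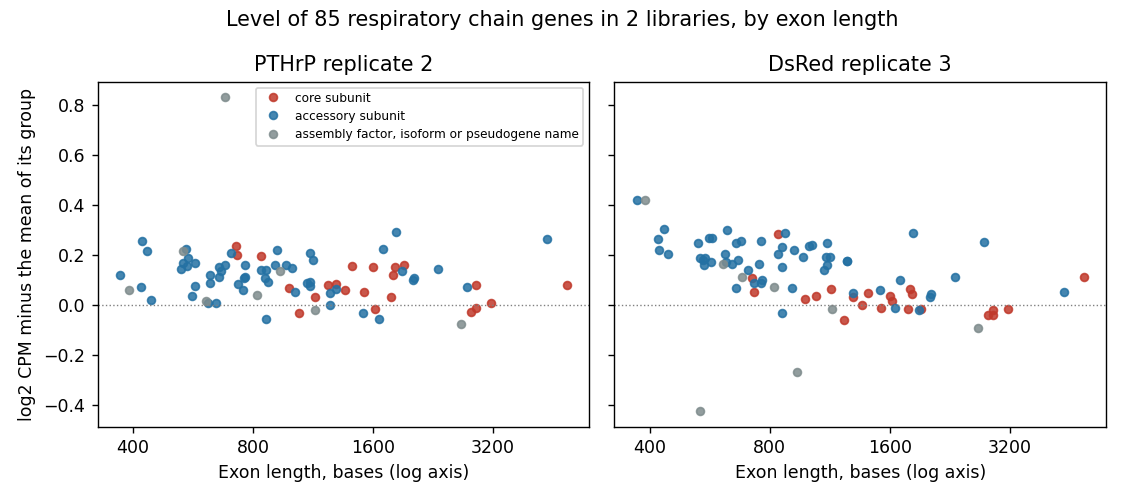
Deviation of each of the 85 genes from its group mean (log2 units, vertical axis) against its exon length (bases, log axis) in PTHrP replicate 2 (left) and DsRed replicate 3 (right), coloured by kind of subunit. In DsRed replicate 3 most short genes lie above 0 and most long genes near it (rho -0.58); in PTHrP replicate 2 the slope is shallower (rho -0.25).

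No gene of the respiratory chain passed the test between PTHrP and DsRed. In edgeR's quasi-likelihood test with Benjamini-Hochberg adjustment at 0.05, 0 of the 85 genes were called, against 9 of all 21141 genes (0.0426%; 4 higher, 0.0189%, and 5 lower, 0.0237%). At an unadjusted p under 0.05 there were 3, Ndufs7, Cyc1 and Atp5a1, all higher in PTHrP, or 3.53% against 8.90% of all genes (4.92% higher and 3.98% lower). DESeq2 called 0 of the 85 with 2 at an unadjusted p under 0.05, and limma-voom called 0 with 3. Across all genes the log2 fold changes, PTHrP minus DsRed, had a median of -0.01 with 48.7% above 0; across the 85 genes the median was 0.04 with 54 above 0 (63.5%).

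The unadjusted 95% interval of the log2 fold change lay within 0.5 of 0 for 82 of the 85 genes and within 0.25 for 41. These intervals reflect only the spread of these libraries. The genes that reached past 0.5 were the thinly expressed isoforms Cox6a2, Cox7a1 and Ndufa4l2. The SE ranged from 0.05 to 0.41 with a median of 0.09.

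**Figure D3:**
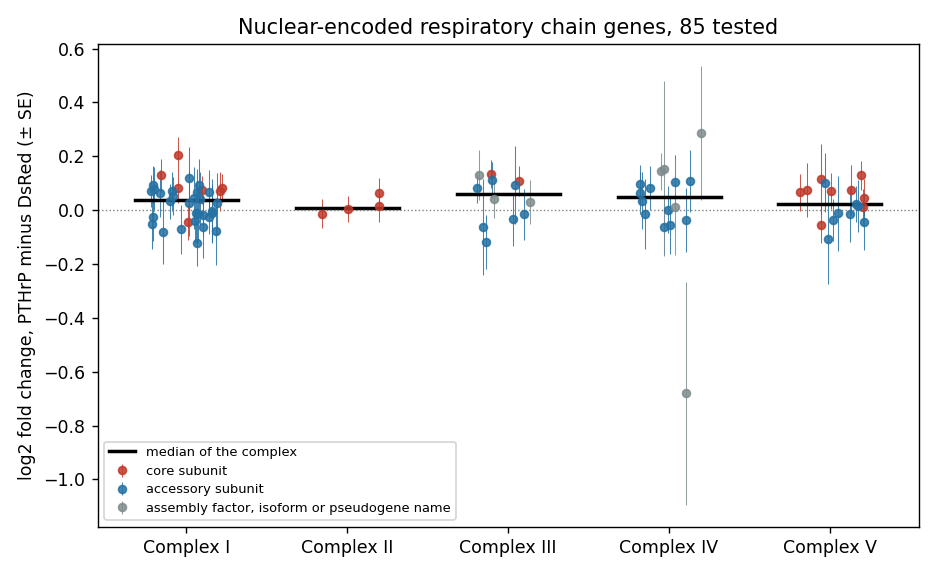
Log2 fold change, PTHrP minus DsRed, of each tested gene with its SE (vertical axis) in complexes I to V (horizontal axis), with the median of each complex as a black bar. The medians lie between 0.01 and 0.06, and the widest errors belong to rare complex IV isoforms.

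The summed level of the whole set was 11648 ± 766 CPM in PTHrP and 11203 ± 453 CPM in DsRed (SD, n = 3 each). The number of positive fold changes and their median moved with the libraries that stood apart. Without PTHrP replicate 2, 34 of 87 tested genes had a positive fold change (median -0.02), and without DsRed replicate 3 it was 74 of 85 (median 0.10). Without both, 59 of 85 were positive (median 0.05). With a gene length correction 40 of 85 were positive, with a median of -0.01. The medians of complexes I, II, IV and V given with the results were likewise below 0 without PTHrP replicate 2 and with the length correction.

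For 10 genes, every PTHrP library lay above every DsRed library (11.8%, against 8.45% of all genes tested), and for 0 genes every PTHrP library lay below (against 7.88%; 16.3% in either direction). Among them were Ndufs1, Ndufs7, Ndufs8 and Ndufv1 of complex I, Cyc1 and Uqcrfs1 of complex III, Atp5a1 of complex V, and the assembly factors Uqcc3 and Cox7a2l. Without DsRed replicate 3, 29 of the 85 genes lay higher in this way, a larger share than the 14.5% of all genes. On the lower side there were 0 of the 85, against 14.1% of all genes. Without PTHrP replicate 2, 12 of the 85 lay higher and 7 lower. Both were smaller shares than among all genes (15.2% higher and 15.3% lower). Without both libraries, 30 of the 85 lay higher, a larger share than the 22.9% of all genes. Another 8 lay lower, a smaller share than the 22.7% of all genes.

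Of these 10 genes, 8 encode core subunits, those with counterparts in the bacterial enzymes that carry out electron transfer or ATP synthesis. The grouping into core and accessory subunits was made after the values were seen, so it has no test. Of 22 tested core genes, 19 had a positive fold change (median 0.07), and of 55 tested accessory genes, 28 (median 0.00). Core genes had a median exon length of 1562 bases and a median of 195 CPM in DsRed, and accessory genes had 837 bases and 61.9 CPM, so kind, length and level run together here and cannot be told apart. With the length correction the medians were 0.02 for core and -0.04 for accessory genes. Without PTHrP replicate 2 they were 0.01 and -0.03 for core and accessory genes, and without DsRed replicate 3 they were 0.09 for core and 0.11 for accessory genes.

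**Figure D4:**
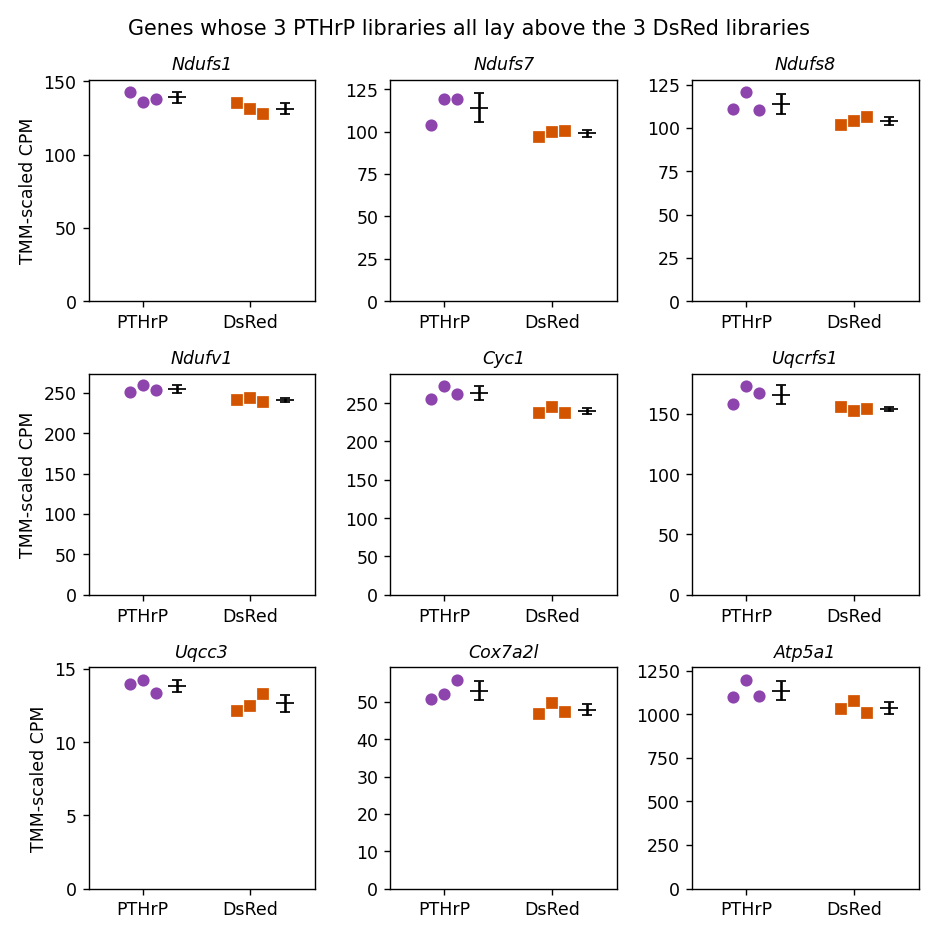
TMM-scaled CPM of 9 of the genes whose libraries did not overlap, in the 3 PTHrP libraries (left, circles) and the 3 DsRed libraries (right, squares), with the mean and SD beside each group and axes starting at 0. The gap between groups is small in each gene against its level, as for Ndufs7 with 104 to 119 CPM in PTHrP and 96.5 to 101 CPM in DsRed.

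Complex I summed to 2719 ± 137 CPM in PTHrP and 2640 ± 157 CPM in DsRed, with 21 of its 36 genes at a positive fold change (median 0.04). Ndufs7 (chr10:80249121-80256794, plus strand, GRCm38) encodes the subunit with the last iron-sulfur cluster before ubiquinone. It had 104, 119 and 119 CPM in PTHrP and 96.5, 99.8 and 101 CPM in DsRed, which gave a log2 fold change of 0.21 (SE 0.07, 95% interval 0.06 to 0.35). Its unadjusted p of 0.0106 became 0.393 after adjustment in edgeR's quasi-likelihood test, the smallest adjusted p of the set. All 3 PTHrP libraries lay above the DsRed libraries.

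Ndufs8, on the minus strand at chr19:3908863-3912774, holds a pair of iron-sulfur clusters upstream of Ndufs7 in the electron path. It had 111, 121 and 110 CPM in PTHrP and 102, 104 and 106 CPM in DsRed (log2 fold change 0.13, SE 0.06, edgeR adjusted p = 0.570). PTHrP replicate 2 stood highest, and the other PTHrP libraries lay closer to the DsRed range. Ndufv1 (chr19:4007384-4012806, minus strand) binds NADH and the flavin. It had 250.2, 259 and 253 CPM in PTHrP and 241, 244 and 239 CPM in DsRed, or a log2 fold change of 0.07.

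Ndufs1 encodes the largest iron-sulfur subunit of complex I. On the minus strand at chr1:63143596-63176833, it had 143, 136 and 138 CPM in PTHrP and 135, 132 and 128 CPM in DsRed. Its log2 fold change was 0.08, with groups that did not overlap and an edgeR adjusted p of 0.720. Among the other core genes, Ndufs3 had a log2 fold change of 0.07 and Ndufv2 of -0.04. Exons of Ndufs1 overlap the lincRNA Ino80dos on the opposite strand by 489 bases, and the strand setting of the counts is not given in the sources used here.

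Among the 29 accessory genes of complex I, 15 had a positive fold change (median 0.02). Ndufc1, a small membrane-arm subunit, had the lowest fold change of the complex at -0.12 (SE 0.09, edgeR adjusted p = 0.731). It had 45.0, 45.2 and 45.4 CPM in PTHrP and 43.4, 48.8 and 55.3 CPM in DsRed, so the even PTHrP values fell inside the wider DsRed range. Ndufb6, a membrane-arm subunit, had 26.1, 30.9 and 26.6 CPM in PTHrP and 27.0, 30.1 and 30.6 CPM in DsRed (log2 fold change -0.07). The other accessory genes ran from -0.08 (Ndufb2) to 0.12 (Ndufa6). Ndufa11, whose upstream window is printed above, had 0.08.

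Complex II, the succinate dehydrogenase shared with the citric acid cycle, varied little between libraries. Its 4 genes, all of them core subunits, summed to 955 ± 12.6 CPM in PTHrP and 944 ± 13.4 CPM in DsRed. Sdha, the flavoprotein that oxidises succinate, had 434, 427 and 430 CPM in PTHrP and 427, 436 and 422 CPM in DsRed, or a log2 fold change of 0.00 with a 95% interval of -0.10 to 0.11. The iron-sulfur subunit gene Sdhb had 190, 201 and 198 CPM in PTHrP and 179, 188 and 196 CPM in DsRed (log2 fold change 0.06, edgeR adjusted p = 0.801). The groups overlapped in both genes.

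The membrane anchors of complex II had fold changes close to 0. Sdhc had 112, 114 and 115 CPM in PTHrP and 115, 116 and 114 CPM in DsRed (log2 fold change -0.01). Sdhd had 209, 228 and 210 CPM in PTHrP and 216, 219 and 205 CPM in DsRed (0.01). The 7 core genes of complex I also spread little within their groups, summing to 1001 ± 17.2 CPM in PTHrP and 944 ± 11.9 CPM in DsRed.

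Complex III summed to 1449 ± 66.8 CPM in PTHrP and 1385 ± 58.0 CPM in DsRed, with 8 of 12 genes positive (median 0.06). Cyc1 (chr15:76343523-76346260, plus strand) encodes cytochrome c1, which hands electrons to cytochrome c. It had 255, 273 and 262 CPM in PTHrP and 237, 245 and 238 CPM in DsRed (log2 fold change 0.13, SE 0.05, 95% interval 0.02 to 0.25). Its unadjusted p was 0.0262 and its edgeR adjusted p 0.486. Uqcrfs1 (chr13:30540308-30545362, minus strand), the Rieske iron-sulfur protein, had 158, 173 and 167 CPM in PTHrP and 155, 152 and 154 CPM in DsRed (0.11, SE 0.06, adjusted p = 0.611). The groups of both genes did not overlap, as held for 16.3% of all genes tested (8.45% with PTHrP higher), and neither gene passed the test. For Uqcrfs1 the lowest PTHrP library (158 CPM) lay close to the highest DsRed library (155 CPM).

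The accessory genes of complex III showed no common direction, with 3 of 7 positive. Uqcrb, a ubiquinone-binding subunit, had 53.5, 66.6 and 58.6 CPM in PTHrP and 62.2, 58.4 and 73.3 CPM in DsRed (log2 fold change -0.12, SE 0.10). Uqcrh, the hinge protein at the cytochrome c1 face, had 36.4, 44.9 and 40.0 CPM in PTHrP and 40.4, 37.7 and 46.1 CPM in DsRed (-0.03). In both genes PTHrP replicate 2 and DsRed replicate 3 were the highest of their groups. Among the assembly factors, Uqcc3 (chr19:8880014-8880923, minus strand), which helps to install cytochrome b, had 13.95, 14.2 and 13.4 CPM in PTHrP and 12.15, 12.5 and 13.3 CPM in DsRed (0.13, edgeR adjusted p = 0.731). Its groups were separated by a gap smaller than the spread within either.

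Complex IV, cytochrome c oxidase, summed to 1431 ± 119 CPM in PTHrP and 1374 ± 150 CPM in DsRed, with 11 of 16 tested genes positive (median 0.05). Its catalytic subunits come from mitochondrial DNA, so all of its nuclear subunits count as accessory here. Cox4i1, the nuclear subunit at which ATP acts on the enzyme, had 272, 321 and 300.4 CPM in PTHrP and 265, 271 and 298 CPM in DsRed (log2 fold change 0.10, SE 0.07, edgeR adjusted p = 0.731). Cox5a had 56.5, 58.4 and 59.3 CPM in PTHrP and 54.1, 49.3 and 61.3 CPM in DsRed (0.08). DsRed replicate 3 lay within the PTHrP range for Cox4i1 and above it for Cox5a.

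Cox7a2l (chr17:83501918-83517330, minus strand), which ties complex III to complex IV in supercomplexes, had 50.9, 52.2 and 56.0 CPM in PTHrP and 46.8, 49.8 and 47.3 CPM in DsRed. Its log2 fold change was 0.14 (SE 0.07, edgeR adjusted p = 0.575) with separate groups, the smallest p of complex IV. Cox7c, a small structural subunit, had 34.0, 43.0 and 37.5 CPM in PTHrP and 37.0, 37.2 and 45.3 CPM in DsRed (-0.06). Ndufa4 had 52.8, 61.2 and 55.5 CPM in PTHrP and 51.7, 51.7 and 70.6 CPM in DsRed (-0.04). In both, DsRed replicate 3 held the highest value of the 6 libraries.

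Several complex IV subunits exist as isoforms for heart and muscle, testis or low oxygen, and MIN6 cells used the widespread form in each set. Counted per length of exon, Cox6a1 made up 99.4 ± 0.293% of the Cox6a pair in PTHrP and 99.4 ± 0.0471% in DsRed (SD, n = 3 each), against the heart and muscle form Cox6a2. Cox4i2, the low-oxygen and lung form, had 26 counts summed over the PTHrP libraries and 21 over the DsRed libraries, while Cox4i1 had 79243 in PTHrP and 73909 in DsRed. The testis forms Cox6b2 and Cox7b2 had 15 and 27 counts in PTHrP, and 18 and 14 in DsRed. Cox8b, the heart and muscle form, had 12 counts in PTHrP and 24 in DsRed, and Cox8c had 4 in PTHrP and 8 in DsRed. These 5 forms and a second Atp5o identifier, at 0 in every library, were too low to be tested.

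The Cox7a set was the most mixed of complex IV, but only through Cox7a2l, which is counted here as an assembly factor. Per length, Cox7a2 made up 77.0 ± 1.37% of it in PTHrP and 77.9 ± 2.89% in DsRed, and Cox7a2l 22.5 ± 1.40% in PTHrP and 21.3 ± 2.55% in DsRed. The muscle form Cox7a1 made up 0.444 ± 0.0867% in PTHrP and 0.754 ± 0.459% in DsRed. Cox7a1 also had the lowest fold change of all 85 genes, at -0.68 (SE 0.41, 95% interval -1.59 to 0.23). It had 0.511, 0.565 and 0.389 CPM in PTHrP and 0.532, 1.29 and 0.525 CPM in DsRed, so the difference lay mostly in DsRed replicate 2.

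Wide errors also marked the other rare forms. Cox6a2 had 1.56, 4.09 and 1.88 CPM in PTHrP and 1.99, 2.34 and 2.43 CPM in DsRed (log2 fold change 0.15, SE 0.33), and the fold change turned to -0.39 once PTHrP replicate 2 was left out. Ndufa4l2, a gene induced by low oxygen in other cells, had the highest fold change of the set at 0.29 (SE 0.25, edgeR adjusted p = 0.790). It had 1.31, 1.76 and 1.79 CPM in PTHrP and 1.24, 1.67 and 1.08 CPM in DsRed, with overlapping groups. Its exons overlap those of Shmt2 on the opposite strand over 32 bases. Whether reads there were told apart depends on the strand setting, which is not given in the sources used here.

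The common forms beside these rare ones had fold changes close to 0 and overlapping groups. Cox6a1 had 321, 367 and 358 CPM in PTHrP and 311, 315 and 374 CPM in DsRed (log2 fold change 0.06). Cox8a had 129.6, 166 and 143 CPM in PTHrP and 124, 130.0 and 154 CPM in DsRed (0.10). Both followed the library pattern, with PTHrP replicate 2 and DsRed replicate 3 at the top of their groups. Cox7a2 had 95.04, 113 and 106 CPM in PTHrP and 92.5, 93.8 and 120.3 CPM in DsRed (0.04). Cox6b1, which helps to bind cytochrome c, had 86.7, 92.1 and 96.1 CPM in PTHrP and 86.7, 83.0 and 105 CPM in DsRed (0.00). Cox7b had 32.9, 39.6 and 35.3 CPM in PTHrP and 33.2, 35.1 and 43.6 CPM in DsRed (-0.06). In all 3 genes DsRed replicate 3 was the highest of the 6 libraries.

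Complex V, ATP synthase, held the most abundant transcripts of the set and summed to 5094 ± 443 CPM in PTHrP and 4859 ± 104 CPM in DsRed, with 11 of 17 tested genes positive (median 0.02). The alpha and beta subunits form the catalytic head. Atp5a1, the alpha subunit (chr18:77773729-77782869, plus strand), had 1098, 1198 and 1107 CPM in PTHrP and 1028, 1074 and 1008 CPM in DsRed (log2 fold change 0.13, SE 0.05, 95% interval 0.01 to 0.25). Its unadjusted p was 0.0347 and its edgeR adjusted p 0.514. Exons of Atp5a1 overlap Haus1 on the opposite strand by 129 bases.

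Atp5b, the beta subunit that holds the catalytic sites, had 1870, 2228 and 1911 CPM in PTHrP and 1886, 1949 and 1886 CPM in DsRed (log2 fold change 0.07, SE 0.07, edgeR adjusted p = 0.808). PTHrP replicate 2 alone lay above the DsRed range, and without that library the fold change was -0.0097. The 2 partners of the catalytic head thus differed in that the groups of Atp5a1 were separate and those of Atp5b were not; the difference between the genes was not tested.

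The c subunit that forms the proton-carrying ring is made from 3 genes whose mature proteins are the same. Per length, Atp5g3 supplied 81.4 ± 0.847% of their transcripts in PTHrP and 81.1 ± 0.651% in DsRed, Atp5g2 13.9 ± 0.558% in PTHrP and 13.8 ± 0.701% in DsRed, and Atp5g1 4.76 ± 0.409% in PTHrP and 5.13 ± 0.0511% in DsRed. Atp5g3 had 261, 350 and 287 CPM in PTHrP and 269, 278 and 306 CPM in DsRed (log2 fold change 0.07). Atp5g2 had 47.5, 58.7 and 48.0 CPM in PTHrP and 44.9, 51.0 and 50.5 CPM in DsRed (0.08). Atp5g1 had 111, 124 and 118 CPM in PTHrP and 116, 119 and 132 CPM in DsRed (-0.05). The shares of Atp5g2 and Atp5g3 differed between groups by less than the spread within them. Atp5g1 was divided by an exon length of 4912 bases, against 731 for Atp5g2 and 724 for Atp5g3, which lowers its share. Its counts summed to 31313 in PTHrP and 32463 in DsRed, against 13656 in PTHrP and 12971 in DsRed for Atp5g2. The order of Atp5g1 and Atp5g2 thus rests on the exon length used.

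Atp5k, the e subunit at the interface of ATP synthase dimers, had the lowest fold change of complex V, at -0.11 (SE 0.17). It had 16.1, 19.7 and 18.8 CPM in PTHrP and 16.4, 16.8 and 25.6 CPM in DsRed, where replicate 3 was the highest of the 6 libraries. At 371 bases it was also the shortest gene of the set. Its fold change without DsRed replicate 3 was 0.13. Atp5k and Atp5g2, whose upstream windows hold the same palindrome, had fold changes on opposite sides of 0 with all libraries. That of Atp5g2 was -0.0286 without PTHrP replicate 2, and a link to the palindrome was not tested.

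Levels per length spread widely within each complex. The mean over the 6 libraries of CPM per kilobase of exon, over core and accessory genes, ran from 4.02 (Ndufb2) to 155 (Ndufa2) in complex I with a median of 59.5, and from 36.0 (Sdhc) to 174 (Sdhd) in complex II with a median of 158. It ran from 65.9 (Uqcrq) to 225 (Uqcrc1) in complex III with a median of 117, and from 34.5 (Cox7c) to 597 (Cox6a1) in complex IV with a median of 94.4. In complex V it ran from 22.9 (Atp5md) to 1020 (Atp5b) with a median of 129. Atp5b, Cox6a1, Atp5g3, Cox4i1 and Atp5a1 held the 5 highest levels. Exon lengths join all transcripts of the GENCODE M21 basic set, and a long minor transcript lowers the level. This may be the case for Atp5g1 with 4912 bases, Ndufb2 with 4375 and Atp5md with 2755. Which gene is lowest in a complex also depends on the exon length used, as for Sdhc with 3171 bases, Uqcrq with 1827 and Cox7c with 1131.

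**Figure D5:**
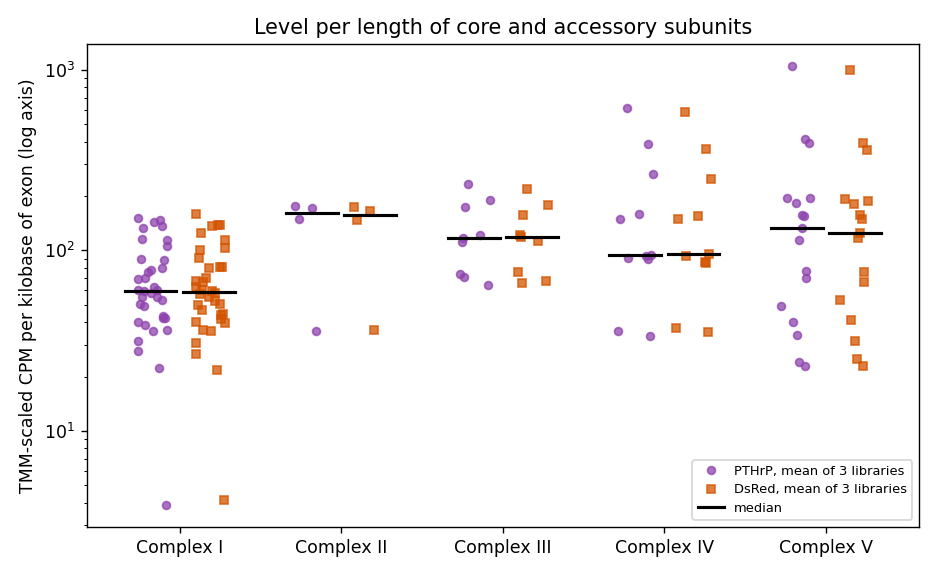
Level of the genes of each complex in CPM per kilobase of exon (log axis), as means of the 3 PTHrP libraries (left, circles) and of the 3 DsRed libraries (right, squares), with the median of each as a black bar. Levels spread over more than 1 order of magnitude in complexes I, IV and V, and Atp5b stands highest with 1046 CPM per kilobase in PTHrP and 995 in DsRed.

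The mitochondrially encoded subunits, which join the nuclear ones in complexes I, III, IV and V, had fold changes below 0 in every gene tested. Of the 13, 11 had enough counts, 0 of 11 passed the test, 0 were positive, and the median log2 fold change was -0.23, against -0.01 for all genes. They summed to 406, 596 and 493 CPM in PTHrP and 555, 498 and 620.2 CPM in DsRed, so the groups overlapped. mt-Nd5, a proton-pumping subunit of complex I, had 30.4, 36.9 and 41.1 CPM in PTHrP and 45.2, 42.3 and 47.7 CPM in DsRed (-0.32, SE 0.10, edgeR adjusted p = 0.388) with separate groups. mt-Nd2 had 8.86, 13.0 and 9.70 CPM in PTHrP and 12.9, 12.7 and 15.01 CPM in DsRed (-0.36, adjusted p = 0.487). These transcripts took under 0.1% of the counts of each library, and near-identical nuclear copies make their counts uncertain. The 11 tested genes share the same libraries, so their common sign cannot be read as 11 separate results. PTHrP replicate 1 had their lowest mean log2 CPM (3.70) and DsRed replicate 3 the highest (4.46). PTHrP replicate 2 (4.17) lay above DsRed replicates 1 (3.95) and 2 (4.05). Whether the common sign holds with a library left out was not tested.

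The further genes listed as assembly factors, which help to make the complexes, gave 0 calls in any complex. For complex I, 15 of 17 tested factors had a positive fold change (median 0.10). Timmdc1, a membrane-arm assembly factor, had 6.11, 14.9 and 6.23 CPM in PTHrP and 5.25, 3.72 and 4.62 CPM in DsRed, which gave a log2 fold change of 1.00 (SE 0.38, edgeR adjusted p = 0.518) that lay mostly in PTHrP replicate 2. Its partner Tmem126b had 26.6, 25.0 and 24.9 CPM in PTHrP and 22.7, 22.2 and 20.9 CPM in DsRed (0.21, adjusted p = 0.457). All 3 PTHrP libraries were above the DsRed libraries for both genes.

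For complex IV, 13 of 21 tested assembly factors were positive (median 0.08). Cox10, which makes the heme A precursor, had 22.9, 24.3 and 24.8 CPM in PTHrP and 20.8, 20.8 and 20.7 CPM in DsRed (log2 fold change 0.21, SE 0.08, edgeR adjusted p = 0.463). The insertase Cox18 had 19.3, 18.5 and 19.6 CPM in PTHrP and 15.9, 17.5 and 16.1 CPM in DsRed (0.21, adjusted p = 0.508). The copper chaperone Cox17 was at -0.60 (SE 0.32) with at most 1.74 CPM. Of the 4 factors of complex II, 2 were positive, and of the 3 of complex III, 1. For complex V, 4 of 5 were positive: Tmem70, needed to form the c ring, had 0.19 (adjusted p = 0.512), and the ATP synthase inhibitor Atpif1 had -0.17 (adjusted p = 0.615).

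Of 13 genes for mobile electron carriers and the mitochondrial acyl carrier protein, 10 were positive (median 0.06) and 0 passed the test. Coq9, a lipid-binding protein of ubiquinone synthesis, had 96.2, 101 and 93.4 CPM in PTHrP and 85.3, 88.5 and 73.9 CPM in DsRed (log2 fold change 0.23, SE 0.08, edgeR adjusted p = 0.393). Coq8a, a kinase-like protein of the same pathway, had 34.3, 23.2 and 35.3 CPM in PTHrP and 22.3, 24.7 and 21.3 CPM in DsRed (0.44, adjusted p = 0.410). Cycs, cytochrome c itself, had 54.6, 63.6 and 56.5 CPM in PTHrP and 66.8, 62.8 and 70.3 CPM in DsRed (-0.20, adjusted p = 0.487). Groups were separate for Coq9 and overlapped for Coq8a and Cycs.

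Among 12 regulators of mitochondrial biogenesis, 7 were positive (median 0.01) and 0 passed the test. The coactivator gene Ppargc1a had 2.25, 2.08 and 1.45 CPM in PTHrP and 3.10, 2.73 and 2.32 CPM in DsRed, which gave a log2 fold change of -0.49 (SE 0.22, edgeR adjusted p = 0.535). The PTHrP libraries of Ppargc1a all lay below the DsRed libraries. Its relative Pprc1 had 95.3, 73.0 and 91.7 CPM in PTHrP and 103, 105 and 96.4 CPM in DsRed (-0.23, adjusted p = 0.505), also with separate groups. Nrf1, whose product is known to bind palindromes of the kind searched above, had 67.7, 69.5 and 68.3 CPM in PTHrP and 63.0, 60.1 and 68.0 CPM in DsRed (0.10, SE 0.07, adjusted p = 0.690).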

How the data were processed

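Values were raw counts per gene that the authors deposited in one table for 6 libraries, and groups and replicate numbers came from the library titles. Per the submitters' processing notes, reads were handled with bcl2fastq, STAR and Subread featureCounts 2.0.3 on GRCm38. The annotation, the strand setting and how reads with several matches were treated: not given in the sources used here. Counts of near-identical copies and overlapping genes are therefore uncertain: 32 members have exon overlaps and 15 processed pseudogenes share the members' names.

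Of 55774 entries, 287 repeated an identifier and were dropped. Genes were filtered with filterByExpr and scaled by TMM, and 21141 were tested with edgeR 4.0.16 (quasi-likelihood F-test, robust, group term alone, two-sided, R 4.3.3) with Benjamini-Hochberg adjustment over all of them. SEs were approximated as the fitted coefficient over the root of its F value. Mean log2 CPM carries a prior count of 2. The biological coefficient of variation was 17.7%. Every pair of libraries differed beyond sampling noise (chi-square per gene at least 9.08). Exon lengths came from GENCODE M21 and upstream windows from RefSeq.

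The members, lists and tests were chosen with earlier results of these data known. Genes given per library are the 2 with the smallest p per direction in each complex, fixed catalytic subunits and fixed isoform sets; of each further list, at most the 2 with the smallest p per direction. Fold ranges and the lowest and highest of a set, genes with separate groups, Ndufs3, Ndufv2 and Ndufa11 were named after their values were seen. Alternatives were library sizes alone, upper-quartile factors, RLE factors, other filters on low counts, DESeq2 1.42.0, limma-voom (limma 3.58.1), a length correction, the replicate number as a block and each library left out. A GC correction, leaving out PTHrP replicate 2 and DsRed replicate 3 together, and exon lengths over all transcripts were added after seeing the data. Per-gene values of 1 member are not reported here. The motif letters were chosen after earlier searches of the same windows. The fits were tested on simulated data.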

Additional observations from a re-analysis of the deposited data

How the results depend on the processing

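In all 19 fits, 0 respiratory chain genes passed the test, with 0 to 13 at an unadjusted p under 0.05 and a smallest adjusted p between 0.140 and 0.949. The number of all genes called moved far more: 9 became 136 with DESeq2, 22 with a gene length correction, 14 with library sizes alone, 220 with no filter on low counts, 541 without both PTHrP replicate 2 and DsRed replicate 3, and 2 to 213 with each library left out. With 1 library left out, the number of members above in every PTHrP library ran from 10 to 29, against 11.6 to 15.2% of all genes. It was 30 without both, against 22.9% of all genes. Leaving out 1 library set the number of positive members between 34 (without PTHrP replicate 2) and 74 (without DsRed replicate 3). Elsewhere 39 to 59 were positive. The median over all members ran from -0.02 to 0.10 with 1 library left out, and every complex but complex III had a median below 0 under some alternative. Without PTHrP replicate 2 the medians were -0.02 for complex I, -0.001 for II, -0.01 for IV and -0.03 for V; with the length correction, -0.008 for I, -0.01 for II, -0.006 for IV and -0.03 for V. Complex I was at -0.03 without DsRed replicate 1, complex IV at -0.02 without DsRed replicate 2 and complex II at -0.01 without DsRed replicate 3. Exon lengths over all transcripts gave a median level of 43.3 CPM per kilobase, against 74.8. The cause of these shifts was not tested. The labels name no pairing of the libraries by replicate number. Deviations of same-numbered libraries correlated by 0.02, -0.11 and 0.03 over all genes and by 0.244, 0.013 and 0.205 over the members. Not every library correlated best with its own number. These correlations cannot settle whether the libraries were paired, since deviations cancel out within each group. As a block the replicate numbers gave 7 calls over all genes, 0 members and 55 positive members.

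Some genes near 0 changed sign. Without both, Atp5b was -0.0202, Atp5g2 -0.0063, Atp5k 0.0746, Cox6a2 -0.3323, Ndufa4 0.0677, Sdha -0.0009 and Sdhd -0.0565. The GC correction gave Cox6b1 -0.0154, Cox7c 0.0024, Ndufa4 0.0199 and Sdha -0.0012. The length correction gave Cox6b1 -0.051, Cox7a2 -0.0183, Sdha -0.0056 and Sdhd -0.0415; with the replicate block added these were -0.0524, -0.0179, -0.0055 and -0.0389, and Cox6a2 was -0.0219. A minimum of 1 CPM gave Cox6b1 -0.0089 and Sdha -0.0053, and upper-quartile factors gave -0.0070 and -0.0034. With 1 library left out the ranges were Atp5b -0.0097 to 0.1173, Atp5g1 -0.0941 to 0.0026, Atp5g2 -0.0286 to 0.1273, Atp5g3 -0.0516 to 0.1626, Atp5k -0.2219 to 0.1348, Cox6a2 -0.387 to 0.402, Cox6b1 -0.0624 to 0.1114, Cox7a2 -0.0342 to 0.1687, Cox7b -0.1343 to 0.0712, Cox7c -0.1547 to 0.0386, Ndufa4 -0.1157 to 0.1287, Sdha -0.0066 to 0.019, Sdhd -0.0251 to 0.036 and Uqcrh -0.1147 to 0.0491.

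Depth was near even between libraries, so the spread between replicates, with a median SE of 0.09, limits most genes. The widest intervals were those of the low-count genes Cox7a1, Cox6a2 and Ndufa4l2. The unadjusted 95% interval reached 0.19 to either side at the median, and a call after adjustment over all genes needs a larger change. Ndufs7, at 0.21 with an interval of 0.06 to 0.35, was not called (edgeR quasi-likelihood test, adjusted p = 0.393). Changes below the reach of the interval, and some above it, could thus be missed in any member.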
